A study of Mus musculus with 8 samples.

Results

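The miR-148 and miR-152 family was examined in whole kidney of mice with an obstructed ureter. The members were chosen by name: mmu-miR-148a-3p, mmu-miR-148a-5p, mmu-miR-148b-3p and mmu-miR-152-3p (written without mmu from here on), 4 of the 1881 mouse miRNAs on the array, with all 10 of their probes. The mice were C57BL/6 males, 8 weeks old, and whole kidney was taken 7 days after surgery in both groups. The UUO group (UUO 1, 2, 3 and 4) had unilateral ureteral obstruction, in which the ureter of a single kidney is tied, and the Sham group (Sham 1, 2, 3 and 8) had sham surgery. There were 4 samples per group with 1 array each. The labels do not say in words that each sample came from a different mouse. The p-values of single miRNAs measure the spread between these samples, which limma pools in part over miRNAs. Those of the ratios between members are described with the ratios.

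miRNAs are short RNAs that guide Argonaute proteins to mRNAs, mainly by pairing of bases 2 to 8, the seed, and lower the output of those mRNAs. miRNAs with the same seed form a family and share many predicted targets. The miR-148 and miR-152 family is best known for acting on the mRNAs of DNA methyltransferases, among them Dnmt1 and Dnmt3b, and miR-148a is abundant in liver, where it acts on the LDL receptor mRNA. Each precursor hairpin can give a 5p and a 3p product, and often a single arm accumulates.

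The mature sequences, from RefSeq (GRCm38.p6), are shown 5′ to 3′ with the seed in capitals, because the seed defines the family and the few bases outside it are what the probes must tell apart:
miR-148a-3p: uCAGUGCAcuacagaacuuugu
miR-148b-3p: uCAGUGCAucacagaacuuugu
miR-152-3p: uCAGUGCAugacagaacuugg
miR-148a-5p: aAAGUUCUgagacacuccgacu
Of the 1679 mature names in that table, 3 carry the seed of miR-148a-3p: miR-148a-3p, miR-148b-3p and miR-152-3p. miR-148a-5p has another seed, shared with miR-148b-5p, and so is tied to the family by its hairpin and not by its seed. Counted from the 5′ end, miR-148b-3p differs from miR-148a-3p by C9U and U10C, and miR-152-3p differs from it by C9U, U10G and U20G and is 1 base shorter. miR-152-3p differs from miR-148b-3p by C10G and U20G.

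The 3 seed-sharing miRNAs come from separate chromosomes. miR-148a-3p lies on the minus strand of chromosome 6 (51269829 to 51269850, GRCm38.p6), within the span of the predicted gene Gm38821. miR-148b-3p lies on the plus strand of chromosome 15 (103285185 to 103285206), within Copz1, and miR-152-3p on the plus strand of chromosome 11 (96850439 to 96850459), within Copz2. Copz1 and Copz2 are paralogs that encode the zeta subunit of the COPI vesicle coat. Whether these places are exonic or intronic was not analysed here. The hairpin of miR-148a is shown with its arms in capitals, the 5p arm first, because the arrays detected its 3p arm and not its 5p arm:
Mir148a: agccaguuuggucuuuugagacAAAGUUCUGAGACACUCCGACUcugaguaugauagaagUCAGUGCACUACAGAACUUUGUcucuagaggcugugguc

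Each miRNA was read by probes complementary to its 3′ end. The brighter probe of each seed-sharing member, printed 5′ to 3′, shows in capitals the bases at which the family differs:
miR-148a-3p probe: acAaagttctgtAGtgcact
miR-148b-3p probe: acAaagttctgtGAtgcac
miR-152-3p probe: cCaagttctgtCAtgca
The miR-148a-3p probe pairs with bases 3 to 22 of its target, the miR-148b-3p probe with bases 4 to 22 and the miR-152-3p probe with bases 5 to 21. Over the stretch it covers, the miR-148a-3p probe has 2 mismatches to miR-148b-3p and 4 to miR-152-3p, counting a base past the end as a mismatch. The miR-148b-3p probe has 2 mismatches to miR-148a-3p and 3 to miR-152-3p. The miR-152-3p probe has 3 mismatches to miR-148a-3p and 2 to miR-148b-3p. How far each probe also reads its relatives was not tested.

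Each array's spot intensities were divided by their 75th percentile among the 623 probes that every one of the 8 arrays detected, and are given as log2 values. Detection of a probe required over 50% of its spots on that array to stand well above background. From 720 to 800 of 4415 probes were detected per array. UUO was compared with Sham by limma over the 408 miRNAs detected on at least 4 arrays, with Benjamini-Hochberg adjustment over all 408. Changes with an adjusted p below 0.05 are termed called. Of the 408, 67.4% were called, 39.7% higher and 27.7% lower in UUO, the groups did not overlap for 61.3%, and the median log2 change was 0.06. These shares moved with the processing: 239 were called higher and 63 lower with scaling to the dmr control features of the array, 127 and 162 with quantile normalization, and 109 and 215 of 499 with the scaled total intensity per miRNA. All Sham arrays lay in 1 row of the slide and all UUO arrays in the other, so group and slide row cannot be told apart.

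The 3 seed-sharing members gave 3 different results. miR-148a-3p was higher in UUO kidneys, 1.48-fold on average, but the Sham kidneys were split and the increase was large against only some of them. Under the scaling used here miR-148b-3p was slightly lower, 1.15-fold, and miR-152-3p, at 1.04-fold, was not called. The direction of both depended on the scaling. miR-148a-5p stayed within background throughout. Of the 3 members tested, 1 was called higher and 1 lower, beside 39.7% and 27.7% of all miRNAs tested, so the counts say nothing particular about the family.

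miR-148a-3p, the family member from chromosome 6, was at log2 signals of −1.95, −2.63, −2.68 and −1.85 on Sham 1, 2, 3 and 8 and of −1.79, −1.72, −1.72 and −1.61 on UUO 1 to 4. Sham 2 and Sham 3 were low, Sham 1 and Sham 8 lay close below the UUO arrays, and the groups did not overlap. The log2 fold change was 0.57 ± 0.20 (SE, n = 4 per group, limma, adjusted p = 0.0303), the increase of rank 98 among the 408. The same split was seen before scaling, at intensities of 107, 63.8, 63.1 and 115 on Sham 1, 2, 3 and 8 and of 140, 132, 140 and 158 on UUO 1 to 4. Its Sham SD of 0.44 was the 21st highest of the 408, whose median was 0.11, while its UUO SD was 0.07. The limma fit takes the same spread in both groups, so its p-value does not allow for this difference.

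The size of the miR-148a-3p difference depended on which Sham kidneys it was measured against. Against Sham 2 and Sham 3 alone the log2 difference was 0.95, and against Sham 1 and Sham 8 alone it was 0.19 and was not called. Both pairs were picked by these values after the data were seen, so the 2 differences describe the split and test nothing. With single arrays left out the log2 change ran from 0.44 (without Sham 3) to 0.71 (without Sham 8), and the call held in 2 of 8 cases, those without Sham 1 and without Sham 8. In slide columns 1 to 4, each holding 1 Sham and 1 UUO array, the log2 differences were 0.17, 0.91, 0.96 and 0.24. The low Sham arrays were those in slide columns 2 and 3. The part of the slide position in the split was not tested.

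miR-148b-3p, the family member within Copz1, was at −1.81, −1.78, −1.74 and −1.74 on Sham 1, 2, 3 and 8 and at −1.93, −1.89, −1.98 and −2.08 on UUO 1 to 4. The Sham arrays lay within a narrow band above all UUO arrays, without the split seen for miR-148a-3p. The log2 fold change was −0.20 ± 0.05 (SE, n = 4 per group, limma, adjusted p = 0.00928). This direction rested on the scaling. Before scaling, the Sham intensity was 119 ± 3.46 and the UUO intensity 119 ± 5.31 (SD, n = 4 each), and with the dmr scaling the log2 change was 0.085 and was not called.

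miR-152-3p, the family member within Copz2, was at −0.31, −0.43, −0.40 and −0.25 on Sham 1, 2, 3 and 8 and at −0.36, −0.24, −0.27 and −0.30 on UUO 1 to 4. The groups overlapped, and Sham 2 and Sham 3 were again the lowest of the Sham arrays, by less than for miR-148a-3p. The log2 fold change was 0.06 ± 0.06 (SE, adjusted p = 0.412, limma), with a 95% interval of −0.07 to 0.18 under this scaling. The mean change of miR-148a-3p, 1.48-fold, lies outside it. The 95% interval of miR-148a-3p itself, 0.12 to 1.02, overlaps it, so the intervals alone do not separate the members.

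**Figure D1:**
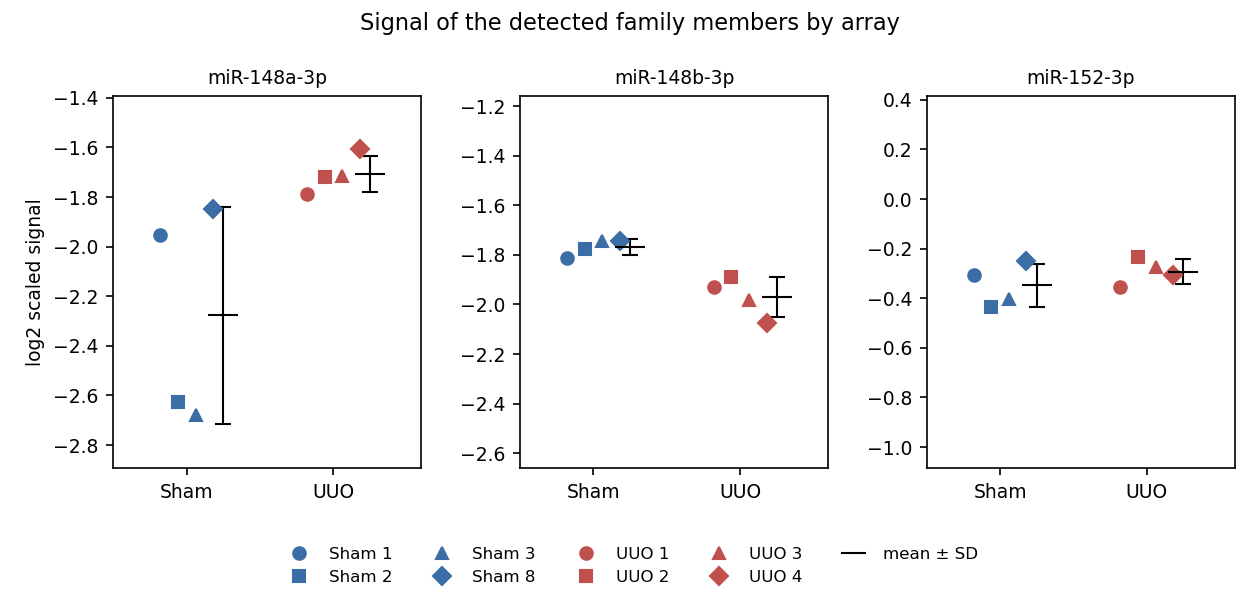
Log2 scaled signal of miR-148a-3p, miR-148b-3p and miR-152-3p on the 4 Sham and 4 UUO arrays, each panel spanning the same height on the log2 scale, with the group mean and SD beside the points. For miR-148a-3p, Sham 2 (−2.63) and Sham 3 (−2.68) sit well below Sham 1 (−1.95) and Sham 8 (−1.85), while miR-148b-3p and miR-152-3p vary by far less.

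The brighter and the dimmer probe of each member gave like changes in a limma fit over the 771 probes detected on at least 4 arrays, of which 41.1% were called higher and 27.2% lower. The probes of miR-148a-3p were at 0.57 ± 0.20 and 0.63 ± 0.20 (SE, log2), both called higher (adjusted p = 0.0311 and 0.0225). Those of miR-148b-3p were at −0.20 ± 0.05 and −0.20 ± 0.07 (adjusted p = 0.00865 and 0.0424), both called lower. The dimmer miR-148b-3p probe is 1 base shorter and read 23.7 to 27.4 before scaling, above the dimmest detected probes of the arrays (11.9 to 13.3). Those of miR-152-3p were at 0.06 ± 0.06 and 0.05 ± 0.05 (adjusted p = 0.402 and 0.398), and neither was called.

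miR-148a-5p, the other product of the miR-148a hairpin, had 4 probes of 13 to 16 bases with 7 or 8 spots each. None was detected on any of the 8 arrays. Their mean intensities ran from −3.41 to 1.04, below the 95th percentile of the negative control spots (3.89 to 4.99 per array) and below the dimmest detected probe of each array. Both probes of miR-148a-3p, from the same hairpin, were detected on all 8. The 5p arms of the other hairpins, miR-148b-5p and miR-152-5p, which are also on the array, were detected on 0 arrays too, with probe means of at most 2.81 and 2.14. No fold change is given for these arms, since both groups were below background.

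Whether the 3 seed-sharing members changed by different amounts was tested on their ratios within each array, from which any scaling by 1 factor per array drops out. A ratio compares changes only, since probes differ in how brightly they read a given amount of RNA. The log2 ratio of miR-148b-3p to miR-148a-3p was 0.14, 0.85, 0.93 and 0.10 on Sham 1, 2, 3 and 8 and −0.14, −0.17, −0.26 and −0.47 on UUO 1 to 4. Every Sham array lay above every UUO array. Of the 408 single miRNAs 61.3% did not overlap either, and the share among all ratios was not computed. The difference was −0.77 ± 0.23 (SE, adjusted p = 0.00223, limma over the ratios of 407 miRNAs to miR-148a-3p, of which 62.4% were called), and it was called with each single array left out. Leaving out Sham 2 and Sham 3 lessened it to −0.38 ± 0.13 (SE, adjusted p = 0.0317, limma). These arrays were picked by their miR-148a-3p values, so this describes the split and tests nothing. The SE of 0.23 was pooled by limma over that table, whose rows share the noise of miR-148a-3p. The ratio of miR-152-3p to miR-148a-3p was given the same SE, so the limma adjusted p of 0.00223 rests on the common spread of the table. This ratio's own spread (SD 0.45 in Sham, 0.15 in UUO) enters only as part of that. With total intensity, where the SEs of both ratios differed (0.24 and 0.20), the difference was −0.79 (adjusted p = 0.0255, limma). The adjusted p of 0.00223 may be too small, and so may those with single arrays left out.

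The log2 ratio of miR-152-3p to miR-148a-3p was 1.65, 2.19, 2.27 and 1.60 on Sham 1, 2, 3 and 8 and 1.43, 1.48, 1.44 and 1.30 on UUO 1 to 4. Again the groups did not overlap and Sham 2 and Sham 3 stood farthest from UUO. The difference was −0.51 ± 0.23 (SE, adjusted p = 0.0419, limma), but it was called in only 2 of 8 cases with a single array left out (−0.62 to −0.40, called without Sham 1 and without Sham 8). Without Sham 2 and Sham 3, picked by their miR-148a-3p values, it was −0.21, which describes the split and is no test. The rows of these ratio tables share the noise of the miRNA they are divided by, and limma gave both ratios to miR-148a-3p the same SE. The limma p-values of both therefore measure the common spread of the table and not that of each ratio.

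The log2 ratio of miR-152-3p to miR-148b-3p, the members without the wide Sham split, was 1.50, 1.34, 1.34 and 1.50 on Sham 1, 2, 3 and 8 and 1.58, 1.65, 1.71 and 1.77 on UUO 1 to 4. It was higher in UUO by 0.25 ± 0.06 (SE, adjusted p = 0.00741, limma over the ratios to miR-148b-3p, of which 74.9% were called), with a 95% interval of 0.11 to 0.40. The call held with each single array left out. Without Sham 2 and Sham 3, picked by their miR-148a-3p values, the difference was 0.18, which is a description and no test. The exact permutation test, 2-sided, gave p = 0.0286 for each of the 3 ratios, the smallest value that 4 against 4 arrays allow, and the same after adjustment over the 3. Groups that do not overlap always give this p, so it restates the lack of overlap.

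**Figure D2:**
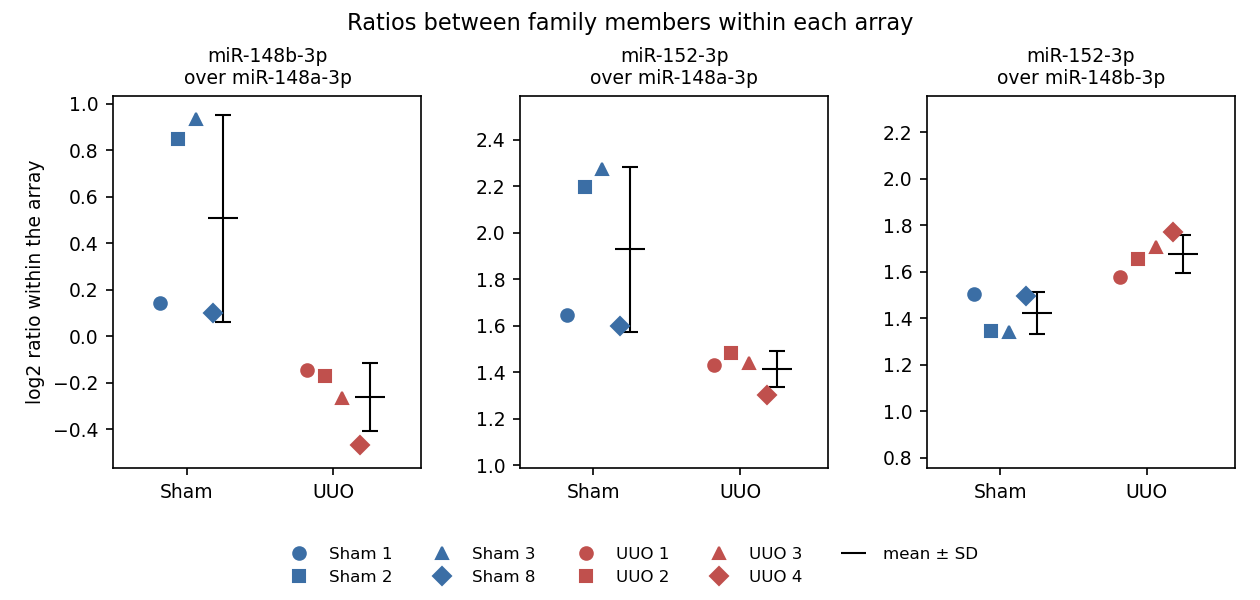
Log2 ratios between the 3 seed-sharing members within each array, for the 4 Sham and 4 UUO arrays, each panel spanning the same height on the log2 scale, with the group mean and SD beside the points. In all 3 panels the Sham and UUO arrays do not overlap, with differences of −0.77, −0.51 and 0.25. The share of all ratios without overlap was not computed, and 61.3% of the 408 single miRNAs did not overlap.

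Scaling moved the fold changes of all members together. With the percentile over all mouse probes, with no scaling and with the dmr scaling, the median change of all tested miRNAs was 0.19, 0.26 and 0.34. Relative to that median, miR-148a-3p stood 0.51 to 0.52 higher under these and the scaling used here, miR-148b-3p 0.25 to 0.26 lower (−0.26 to −0.25), and miR-152-3p at −0.01 to 0.00. Over 13 ways of processing, the log2 change of miR-148a-3p ran from 0.20 to 0.85 and was called higher in 8, and that of miR-148b-3p ran from −0.59 to 0.08 and was called lower in 10. That of miR-152-3p ran from −0.28 to 0.34, called higher in 3 and lower in 2, so its direction was set by the processing. Over the 10 settings in which ratios were computed, that of miR-148b-3p to miR-148a-3p ran from −0.79 to −0.48 and that of miR-152-3p to miR-148b-3p from 0.22 to 0.47, each called in all 10. That of miR-152-3p to miR-148a-3p ran from −0.54 to −0.26 and was called in 6. Except with total intensity and the deposited ratios, both ratios to miR-148a-3p were given the same SE within each setting. Those calls do not rest on each ratio's own spread. These settings are not separate checks. Changing the filter or doubling the floor left every member change and ratio as it was and altered only the SE and adjusted p. Total intensity, the deposited ratios and the mean of all probes gave the same ratios as each other.

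**Figure D3:**
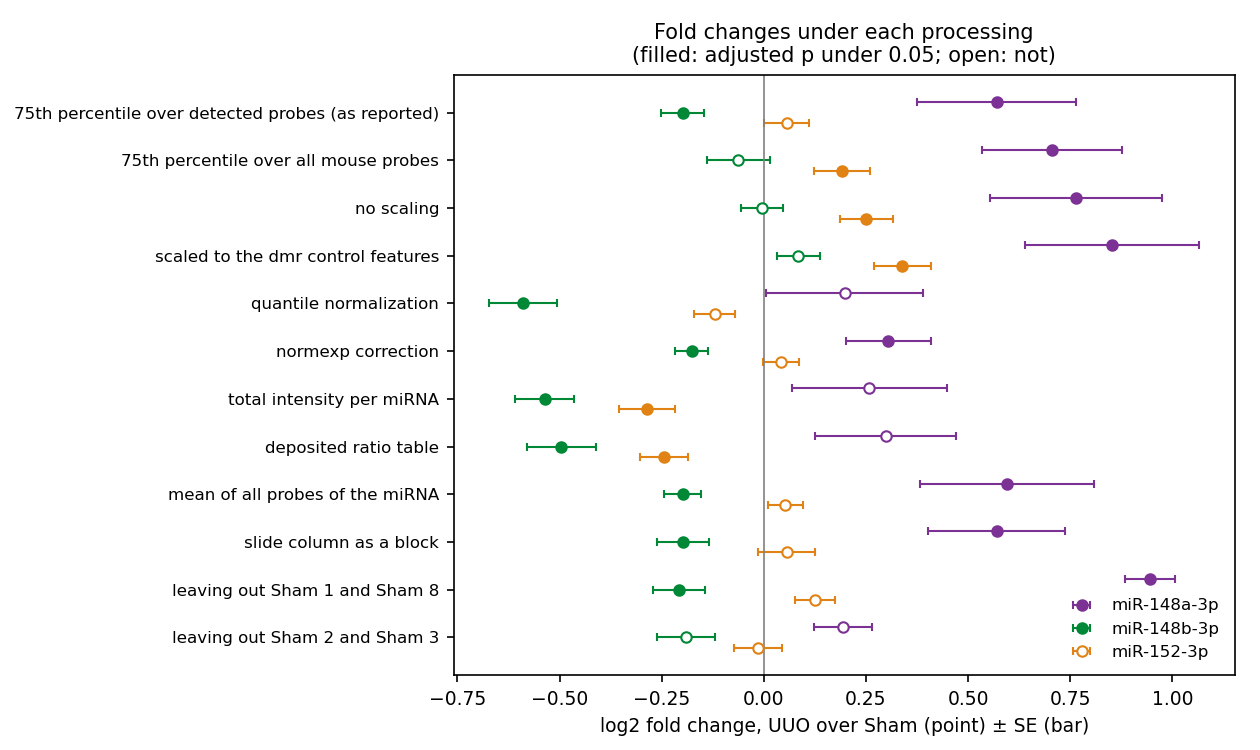
Log2 fold change, UUO over Sham, of the 3 seed-sharing members under 12 settings, each with its SE; filled points have an adjusted p under 0.05. miR-148a-3p lies to the right of miR-152-3p, and miR-152-3p to the right of miR-148b-3p, in every setting, while the zero line falls at a different place among them.

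The total intensities summed per miRNA by the scanner software, before any scaling, and the deposited ratios lay in opposite directions for miR-152-3p. Its unscaled total intensity was 165 ± 12.1 for Sham and 198 ± 4.68 for UUO (SD, n = 4 each), and every UUO array (194 to 204) lay above every Sham array (153 to 179). Its deposited ratio was 1.07 ± 0.03 for Sham and 0.906 ± 0.053 for UUO (SD, n = 4 each), with every UUO array below every Sham array. The share of all miRNAs without overlap was not computed for unscaled totals or deposited ratios. Once each array's totals were divided by their 75th percentile, the log2 change of miR-152-3p was −0.28, against −0.24 for the deposited ratios, and both were called lower. The unscaled total intensity of miR-148b-3p was 41.3 ± 1.10 for Sham and 41.6 ± 1.74 for UUO, and its deposited ratio 1.18 ± 0.08 and 0.840 ± 0.074. The deposited ratios hold a factor per array, with a log2 of 0.15 to 0.36 for Sham and −0.38 to −0.15 for UUO, and the sources used here do not give its basis.

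The miRNAs most like each member over the 8 arrays were taken by Pearson's correlation of log2 signals, a description in which the group difference and the scaling are shared by all. For miR-148a-3p they were miR-96-5p (r = 0.956), a miRNA of the miR-183 cluster, miR-27a-3p (r = 0.952) and miR-31-5p (r = 0.951). After each group's mean was subtracted the correlations were 0.927, 0.899 and 0.970, values that the choice of the highest correlations over 8 arrays, 4 of them the split Sham arrays, largely fixes. The sign of the change held in 7 of 7 other scalings and corrections for miR-96-5p and miR-31-5p and in 5 for miR-27a-3p. miR-31-5p was at −3.36, −4.35, −4.49 and −3.33 on Sham 1, 2, 3 and 8 and from −2.58 to −2.17 in UUO. Its Sham 2 and Sham 3 were low too, and it was 1.53 ± 0.28 (SE, log2, adjusted p = 0.00166, limma) higher in UUO. miR-96-5p was at −2.19, −3.10, −2.94 and −2.29 on the same Sham arrays and from −1.91 to −1.67 in UUO.

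**Figure D4:**
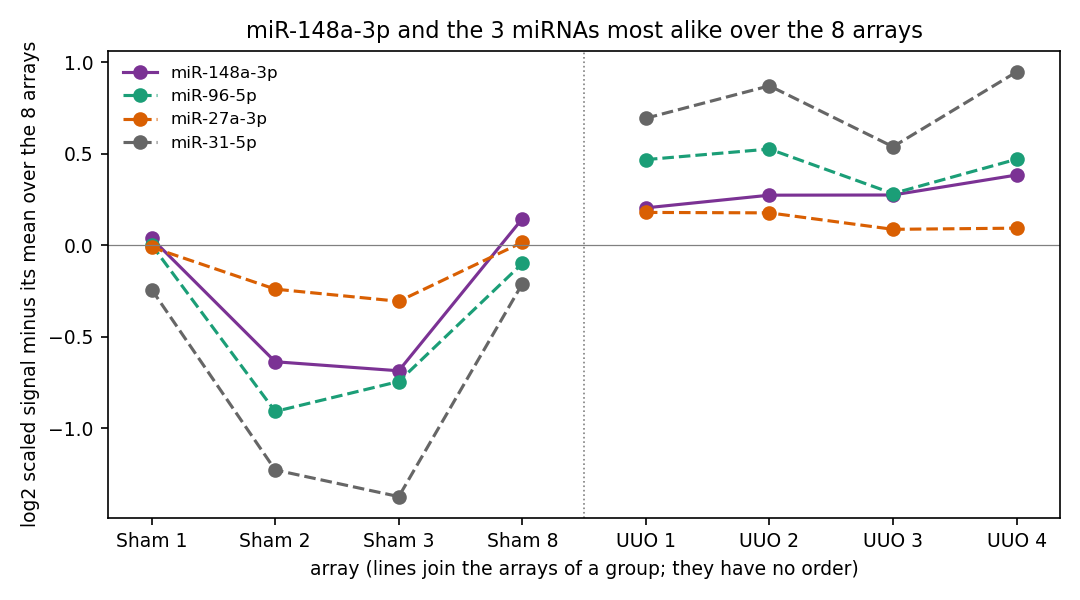
Log2 scaled signal of miR-148a-3p, miR-96-5p, miR-27a-3p and miR-31-5p on each array, less each miRNA's mean over the 8 arrays; lines join the arrays of a group, which have no order. All 4 are lowest on Sham 2 and Sham 3 and higher on each UUO array than on each Sham array under this scaling, with the sign of the miR-27a-3p change held in 5 of 7 other scalings and corrections.

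For miR-148b-3p the most alike were miR-429-3p (r = 0.982), a member of the epithelial miR-200 family, miR-450a-5p (r = 0.979) and miR-22-5p (r = 0.973), with log2 changes of −0.28, −0.37 and −0.31 (SE 0.06 each). The sign of miR-429-3p held in 6 of 7 other scalings and corrections and that of miR-450a-5p and miR-22-5p in 7. For miR-152-3p they were miR-205-5p (r = 0.919), miR-143-3p (r = 0.857), a smooth muscle miRNA, and miR-362-3p (r = 0.845). miR-205-5p, a miRNA of stratified and ductal epithelia, was at the floor of −4.89 on Sham 2 and near it on Sham 3 (−4.64) and UUO 1 (−4.84), against −2.68 and −2.73 on Sham 1 and Sham 8. It was not called (0.63 ± 0.73, SE), and its sign held in 7 of 7 other scalings and corrections. miR-143-3p was called higher (0.24 ± 0.07, SE), with its sign held in 5 of 7. miR-362-3p was not called (0.09 ± 0.06, SE), with its sign held in 4 of 7.

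Other miRNAs known to act on DNA methyltransferase mRNAs were described as a list of 10, of which 9 were tested. Of these 5 were called lower, 2 higher and 2 not called, beside 27.7%, 39.7% and the rest of all 408, with a median log2 change of −0.53 against 0.06 for all tested miRNAs. miR-185-5p, which acts on Dnmt1, was at −0.95 ± 0.08 (SE, adjusted p = 1.73e-05, limma), the miR-29 miRNAs, which act on Dnmt3a and Dnmt3b, at −0.91 (miR-29c-3p), −0.68 (miR-29b-3p) and −0.53 (miR-29a-3p), and miR-101a-3p at −0.64. miR-342-3p, also found in leukocytes, was higher by 1.71 ± 0.05 (SE, log2), and miR-143-3p by 0.24 ± 0.07. The signs of these changes held in 7 of 7 other scalings and corrections, except that of miR-143-3p, which held in 5. miR-126a-3p (−0.14) and miR-140-5p (−0.09) were not called, and their signs held in 4 of 7.

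Marker miRNAs of cell types in or near the kidney moved with the groups, and miR-342-3p and miR-143-3p of the list above are also among them. The counts stand beside 39.7% called higher and 27.7% called lower among all 408. All 8 leukocyte markers were called higher, with a summed log2 signal of 1.26 to 1.51 in Sham and 3.15 to 3.32 in UUO. Among these 8, miR-511-3p was at the floor in Sham, so the detection filter may have fixed its call, which is no support. Of 6 fibroblast and smooth muscle markers 5 were called higher (2.63 to 2.77 in Sham, 3.98 to 4.20 in UUO). With quantile normalization, scaled total intensity and the deposited ratios 4 were called higher and 1 lower, and with normexp correction 5 and 1. All 9 tubule markers of the labelled tissue were measured. Of these 6 were called lower (5.79 to 5.88 in Sham, 5.09 to 5.33 in UUO), and with the dmr scaling 3 were called lower and 3 higher. The endothelial markers were summed at 3.64 to 3.73 and 3.42 to 3.63, with 1 of 2 called lower here and 1 higher with the dmr scaling, and 2 of 3 red blood cell markers were called lower (1.89 to 2.45 and 1.08 to 1.94). The liver miRNA miR-122-5p was at −4.06 to −3.59 in Sham and was at the floor in UUO. The part of these shifts in the values of the family was not tested, and in whole tissue fewer cells of a type and less RNA per cell cannot be told apart.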

How the data were processed

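Agilent Feature Extraction 10.7.3.1 wrote the deposited intensities, per the file headers, after subtracting a fitted background surface and without normalizing between arrays. The deposited series table holds linear ratios. Set against the files, each equals the total intensity per miRNA times a factor per array, divided by the miRNA's median. Further steps are not given in the sources used here.

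Control spots and outlier spots (2.64 to 2.95% on each array) were dropped, and the spots of a probe were averaged. After scaling, signals were raised to a floor (log2 −4.89) and log2 was taken. A miRNA was represented by its brightest probe. limma 3.58.1 in R 4.3.3 (lmFit, eBayes) was fitted with group as the only term, and was run on simulated data. The simulated miRNAs were independent, with the same SD in both groups. They therefore do not check the ratio tables or a miRNA with unequal SDs such as miR-148a-3p. The number of arrays limits the precision. Probe positions, which the headers place on mm9, were not used; positions and mature sequences are RefSeq's (GRCm38.p6, 6 of 6 family names matched).

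The members, lists and alternatives were chosen with earlier results of these data known. The miRNAs named are the members, the opposite arms, the 3 most alike per member, and the tested methyltransferase list; miR-511-3p and miR-122-5p were singled out after their values were seen. Alternatives were other scalings, quantile normalization, normexp correction, other summaries and filters, a doubled floor, blocks and arrays left out. Sham and UUO share the numbers 1, 2 and 3, but the deviations of same-numbered arrays correlated at 0.00, 0.12 and −0.30, so the numbers were not taken as pairs.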

Additional observations from a re-analysis of the deposited data

How the results depend on the processing

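miR-148a-3p kept its direction in all settings run but was not called with quantile normalization (0.20), total intensity (0.26), the deposited ratios (0.30), no filter or a doubled floor (0.57 each). miR-148b-3p was not called with the percentile over all mouse probes (−0.063) or without scaling (−0.00407) and turned to 0.085 with the dmr scaling. miR-152-3p was called higher with those scalings (0.19, 0.25 and 0.34), turned to −0.12 with quantile normalization, and was called lower with total intensity scaled to its 75th percentile per array (−0.28) and with deposited ratios (−0.24). The ratio of miR-152-3p to miR-148a-3p was not called with quantile normalization (−0.32), normexp correction (−0.26), total intensity (−0.54) or the deposited ratios (−0.54). That of miR-148b-3p to miR-148a-3p was called in every setting run, several of which share the same estimate.

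Without Sham 2 and Sham 3, added after the data were seen, miR-148a-3p (0.19), miR-148b-3p (−0.19) and the ratios of miR-152-3p to miR-148a-3p (−0.21) and to miR-148b-3p (0.18) were not called and miR-152-3p was at −0.015. Of 408 miRNAs 113 were called lower, and 63 with the dmr scaling. With scaled total intensity it was 215 and with deposited ratios 207, each of 499 tested, so the tested set differed too. Called higher were 109 to 239 over the ways of processing. With single arrays left out the ranges were 0.44 to 0.71 (miR-148a-3p), −0.23 to −0.16 (miR-148b-3p), 0.03 to 0.09 (miR-152-3p), −0.90 to −0.63 (miR-148b-3p to miR-148a-3p), −0.62 to −0.40 (miR-152-3p to miR-148a-3p), 0.22 to 0.29 (miR-152-3p to miR-148b-3p), and 147 to 171 called higher and 106 to 117 lower.

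With the replicate block over the 6 arrays numbered 1 to 3, miR-148a-3p (0.68), miR-148b-3p (−0.15) and the ratio of miR-152-3p to miR-148b-3p (0.25) were not called, and 142 miRNAs were called higher and 84 lower. Sham 1, 2 and 3 correlated best with UUO 4, 1 and 2, so no array correlated best with its own number. With no value for miR-148a-5p, its alternatives and its ratio were not run. Causes of these changes were not tested, except that fewer arrays entered the block and the settings with arrays left out.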

Other observations

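miR-148a-5p shows what the deposited ratios hold for a miRNA that was not detected. Its total intensity was listed at 0.1, the software's value for no detected probe, on all 8 arrays. Its deposited ratio was nevertheless 1.11, 1.26, 1.28 and 1.11 on Sham 1, 2, 3 and 8 and 0.809, 0.903, 0.867 and 0.766 on UUO 1 to 4. The groups did not overlap, though the share of all miRNAs without overlap was not computed for the deposited ratios. The UUO mean of 0.836 was 0.703 times the Sham mean of 1.19. These numbers equal the column medians of the deposited table. The ratio of miR-148b-3p, whose total intensity was 1.01 times as high in UUO as in Sham, was 0.710 times as high in the deposited table.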
